A study of Mus musculus with 4 samples.

Results

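The genes described here are mouse zinc finger genes that gave rise to circular RNAs (circRNAs) in developing lung. They are all hosts whose symbol is Zfp followed by a number, with Zfp827 and Zfp516 left out, and 68 of the 4646 host genes of the series met that rule. They carried 208 distinct circRNAs and 2746 junction reads over the series. A junction read crosses the back-splice, the point where the end of a later exon is joined to the start of an earlier one.

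Total RNA of lung tissue from C57BL/6 mice was sequenced, with a single library per stage and 4 in all. The pseudoglandular library came from embryonic day 14.5, when the airways branch, and the canalicular library from embryonic day 16.5. The terminal sac library was taken at embryonic day 18.5, shortly before birth, and the alveolar library from newborns at day 7.5. No genotype or treatment separates the stages, and neither the number of animals behind a library nor their sex is given in the labels. Since no stage was repeated, no p-value is given, and each comparison is between libraries. Lung tissue is a mixture of cell types, so fewer cells of a type and less of an RNA per cell cannot be told apart.

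Zinc finger proteins of this family fold short loops around zinc ions, each held by a pair of cysteines and a pair of histidines, and most of them bind DNA through a row of such fingers. The family is among the largest of mammalian transcription factor families. Many members carry a KRAB domain, which recruits Trim28 (KAP1) and through it histone methyltransferases that silence transposable elements. In many of those KRAB genes the whole row of fingers lies in 1 long last exon, behind a few short exons. A circRNA is made by back-splicing of internal exons and so normally lacks the first and the last exon of its gene. A circRNA of human ZNF609 has been studied in muscle cells.

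The reads were concentrated in a few hosts. Zfp644 alone carried 769 reads, 28.0% of the family, and Zfp532, Zfp148 and Zfp638 followed with 399, 313 and 149 reads. These 4 hosts together held 59.4% of the family's reads. A further 21 hosts had 20 to 99 reads, 6 had 10 to 19, and the remaining 37 had 142 reads between them, of which 19 hosts had only 2 reads each. Over the stages, 22 hosts were listed in all 4 libraries, 9 in 3, 10 in 2 and 27 in 1.

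The back-splice letters of 11 circRNAs on which the results below turn are shown here, because this junction is what tells each circle from the linear transcript. In each line the 15 lower-case letters are the end of the last exon in the circle and the 15 capitals are the start of its first exon, read 5′ to 3′ on the strand of the gene from GENCODE M21 transcripts (GRCm38, the same build as mm10). Coordinates are on mm10, as deposited.
Zfp148 exons 2 to 4, chr16:33421321-33434974, plus strand: gcactcaatgtccctGATAGAAGAGAAGAA
Zfp644 exons 3 to 5, chr5:106634831-106638635, minus strand: tgactgtgcactcagACTAAAGGTGTTAAA
Zfp644 exons 2 to 5, chr5:106634831-106666845, minus strand: tgactgtgcactcagGCTTGATTTAAATTT
Zfp207 exons 9 to 13, chr11:80394286-80398470, plus strand: cctgttcagtctgagGCTCAGGCAGCTGTC
Zfp462 exons 8 to 10, chr4:55050186-55060237, plus strand: cgggatgagcacaagACTCCTCTTACTCGG
Zfp292 exons 2 to 4, chr4:34839332-34839986, minus strand: tggataaagagaaagACACTTCTTGAATAT
Zfp609 exon 2, chr9:65794622-65795495, minus strand: gtcaagtctgaaaagCAATGATGTTGTCCA
Zfp638 exons 3 to 21, chr6:83934949-83972283, plus strand: actaggaaaaggaagGACTGGATTCAGCAT
Zfp638 exon 2, chr6:83928653-83930165, plus strand: tgtagtcatttgaagCTTTGTGTTATTCTT
Zfp423 exons 2 to 3, chr8:87859284-87904548, minus strand: accgctgtcctggagTTGAAGAGGGGGAGG
Zfp366 exons 2 to 3, chr13:99228319-99234288, plus strand: cctttcaaatgcaagGGAAACTGCAGAGGA
The 2 Zfp644 circles listed share the same last exon, and so the same 15 lower-case letters, and differ in the exon that follows them across the junction. The Zfp609 circle is 1 exon joined to itself and holds the start codon of the gene.

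Of all listed junction reads, 25983, 31218, 36156 and 28332 came from the pseudoglandular, canalicular, terminal sac and alveolar libraries. Intervals below are 95% intervals that cover the counting error of reads only, and PCR copies without molecular identifiers are not independent molecules. Marker genes of lung cell types also differed between the libraries. Of 5 alveolar type 2 cell markers 4 were listed as hosts, with 0, 6, 440 and 766 junction reads in order of stage (Abca3 was not listed), and the 4 endothelial markers summed to 8, 24, 79 and 128 reads. Of 5 general lung epithelial genes 3 were listed, with 26 to 50 reads a stage, and Nkx2-1 and Foxa2 were not listed. Of 4 cardiac and striated muscle markers 3 were listed, with 94, 28, 16 and 26 reads, and Myh6 was not. The 4 immune markers had 8, 47, 60 and 15 reads, and of 4 erythroid markers only 1 was listed, with 2 reads in all. The part of these markers in the results was not tested.

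As a share of listed junction reads the family stood at 2.56% (2.37 to 2.76) in the pseudoglandular library, 2.68% (2.50 to 2.87) in the canalicular, 2.07% (1.93 to 2.22) in the terminal sac and 1.74% (1.59 to 1.90) in the alveolar library. The embryonic day 14.5 and 16.5 libraries held the higher shares and the newborn library the lowest. The alveolar share was 0.680 times the pseudoglandular share (0.604 to 0.765), and this ratio stayed below 1 under every alternative tried. The terminal sac share was 0.773 times the canalicular share (0.699 to 0.854). That step depends on the scale: relative to the non-junction reads of the 1052 hosts listed in all 4 libraries, an alternative added after seeing the data, the ratio was 1.06 (0.956 to 1.17). The alveolar share was 0.842 times the terminal sac share (0.750 to 0.944), but 0.881 (0.766 to 1.01) without Zfp644 alone and 0.924 (0.823 to 1.04) without circRNAs of few distinct alignment patterns, none of which comes from the 68 hosts. Those circRNAs held 13.7% of alveolar junction reads, against 5.30% of terminal sac reads.

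**Figure D1:**
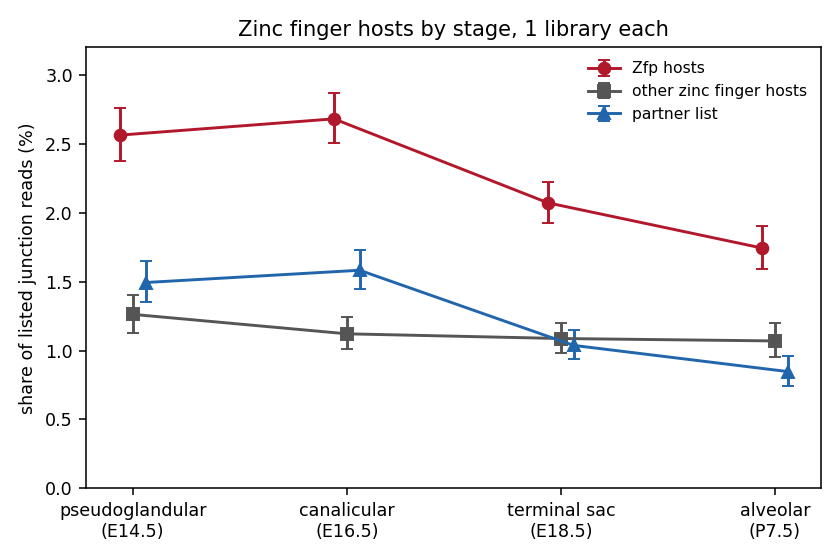
Share of listed junction reads (%) at each stage for the Zfp hosts, for other hosts named as zinc finger genes and for the list of silencing partners; points are single libraries and bars are 95% exact binomial intervals. The Zfp share was 1.74% in the alveolar and 2.56% in the pseudoglandular library, while the other zinc finger hosts lay between 1.07% and 1.26%.

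The share of linear reads across the ends of the family's listed circRNAs was also lower in the terminal sac and alveolar libraries. These ends differ between libraries, since each lists a partly different set of circles. Zfp207, for example, summed to 10903 non-junction reads in the pseudoglandular and 1675 in the alveolar library, but had 2404 and 1596 at its leading circle. The family held 1.46%, 1.52%, 0.866% and 0.594% of listed non-junction reads in order of stage. Much of this came from Zfp207 and Zfp638. They gave 10903 and 10275 of the family's 43032 non-junction reads in the pseudoglandular library, and 1675 and 1796 of 16944 in the alveolar. The circular share, computed as 2 times junction reads over that number plus non-junction reads, was 3.0%, 3.40%, 4.36% and 5.51% for the family. Over all listed circRNAs it was 1.74%, 1.96%, 1.87% and 1.95%. The family's values without Zfp207 and Zfp638 were not computed, so the rise by stage may rest on those hosts. The family's ends were therefore read in circular form more often than those of all circRNAs at each stage, although the non-junction total counts only ends of circRNAs that are listed in that library.

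Host by host, junction reads were compared between libraries where a host had 10 or more reads in the pair. A host was called higher or lower if its share differed at least 2-fold and the interval excluded 1. Where a host was not listed, 3 reads stood in for it, and the fold is written as "at least"; this bound fails if filtering removed more than 3 reads. The 4 pairs share libraries with each other. In this way 29 of the 68 hosts could be compared in some pair and 11 of them were called in at least 1 pair, beside 50% of the 1586 hosts compared over the whole series. The other 39 had too few reads for any comparison.

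Between the ends of the series, alveolar against pseudoglandular, 20 Zfp hosts could be compared. None was called higher, against 15.1% of all hosts, and 3 were called lower, close to the 17.3% of all hosts. The median log2 ratio was -0.41 over these hosts and -0.12 over all hosts compared. Of the 20 ratios 13 lay below 1, beside 575 of 1084 over all hosts. Zfp407, which in mouse adipocytes takes part in the control of glucose transporter expression, had 37, 22, 3 and 0 reads in order of stage. It fell at least 13.4-fold in the alveolar library relative to the pseudoglandular. Each later library had fewer of its reads than the one before.

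Zfp638, a nuclear protein that in human cells acts with the HUSH complex to silence foreign DNA and in mouse promotes adipocyte differentiation, had 38, 51, 50 and 10 reads. The embryonic libraries lay together and the newborn library stood well below them. The fall was 4.14-fold (2.03 to 9.33) in the alveolar library relative to the pseudoglandular and 3.92-fold (1.96 to 8.67) relative to the terminal sac library. Zfp236, whose protein has 30 finger matches, had 24, 28, 27 and 8 reads, the same shape. It was 3.27-fold (1.42 to 8.42) lower in the alveolar library than in the pseudoglandular and 2.64-fold (1.17 to 6.74) lower than in the terminal sac library.

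The most abundant hosts changed less than the 2-fold threshold. Zfp644, whose human homologue is bound to the EHMT histone methyltransferases, had 190, 188, 245 and 146 reads, with a ratio of 0.705 (0.564 to 0.879) for alveolar over pseudoglandular. Zfp532, whose human homologue belongs to a chromatin reader complex with ZMYND8, had 111, 131, 84 and 73 reads and a ratio of 0.603 (0.443 to 0.818). Zfp148, a regulator that binds GC-rich promoter elements, had 80, 85, 94 and 54 reads and a ratio of 0.619 (0.430 to 0.885). Each interval lay below 1 without the ratio reaching the threshold. By share of junction reads the alveolar library was the lowest for Zfp644 and Zfp148, whereas for Zfp532 it was the terminal sac library, at 25.8 reads per 10000 in the alveolar and 23.2 in the terminal sac library. Zfp609, which works with the cohesin loader Nipbl in mouse neural progenitors, had 15, 13, 13 and 18 reads and a ratio of 1.10 (0.524 to 2.35). Its paralogue Zfp608 had 3, 4, 14 and 10 reads, and no pair was called for either.

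**Figure D2:**
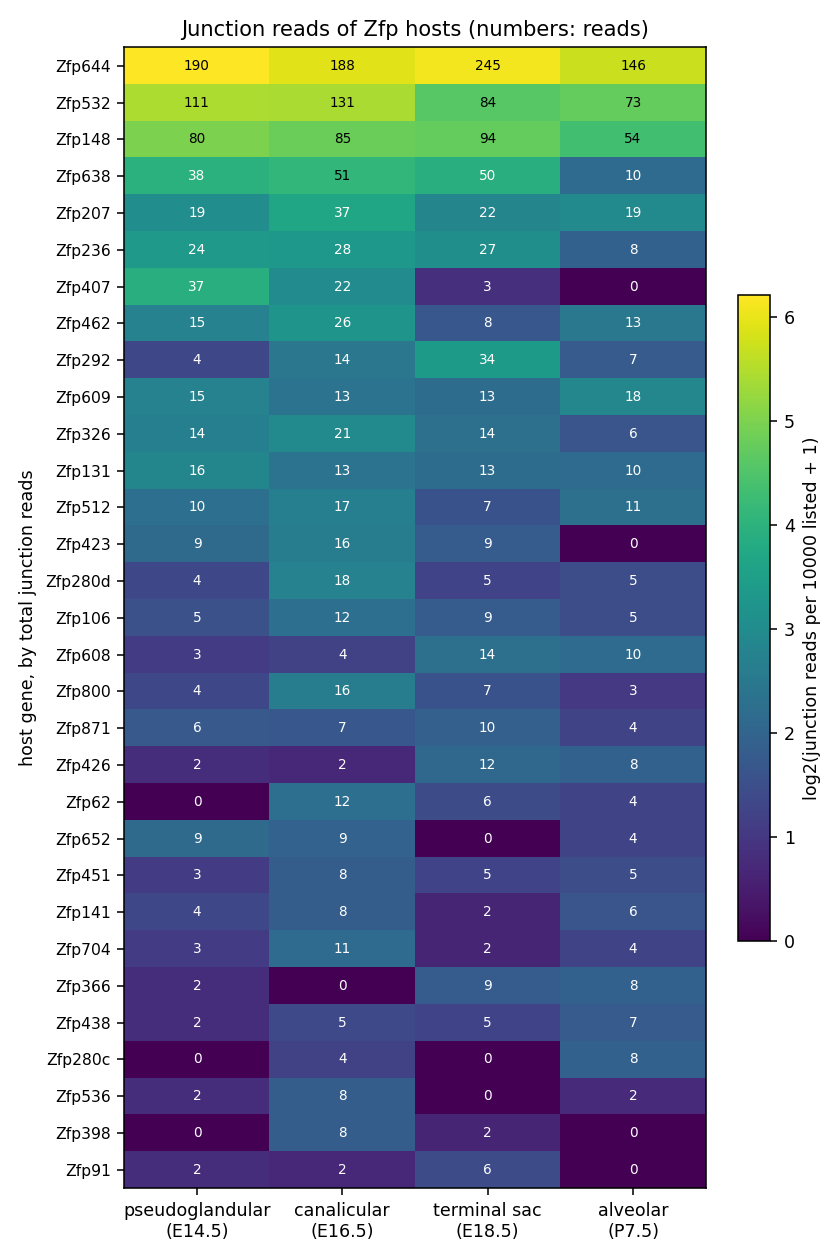
Junction reads of the 31 Zfp hosts with 10 or more reads over the 4 libraries, 1 row per host in order of total reads; the number in a cell is the read count and the colour is log2 of junction reads per 10000 listed junction reads plus 1. Zfp407 has 37, 22, 3 and 0 reads in order of stage, and Zfp292 peaks at 34 reads in the terminal sac library.

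Between the canalicular and the pseudoglandular library 24 hosts could be compared, with 3 higher, beside 11.5% of all hosts, and 1 lower, beside 11.3%. The median log2 ratio was 0.49 for the family, against 0.01 for all hosts. Zfp280d had 18 reads in the canalicular library, against 4 in the pseudoglandular, a 3.75-fold difference (1.23 to 15.2). Zfp800 had 16 reads against 4, a 3.33-fold difference (1.07 to 13.7). Zfp62 had 12 reads in the canalicular library and was not listed in the pseudoglandular, which makes it at least 3.33-fold higher. All 3 had their highest count in the canalicular library, and Zfp280d, for example, had 5 reads at each of the later stages. Zfp407 was the host called lower, at 22 against 37 reads and 2.02-fold (1.16 to 3.60), a value close to the threshold that was not past it when non-junction totals set the scale.

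Between the terminal sac and the canalicular library 26 hosts could be compared, with 2 higher, beside 14.5% of all hosts, and 6 lower, beside 12.5%. Of the 4 pairs this was the one in which the family's median lay farthest from that of all hosts. The median log2 ratio was -0.81, against 0.02 over all hosts, and 23.1% of the family's compared hosts were called lower. Of its 26 ratios 21 lay below 1, beside 599 of 1236 over all hosts. Zfp407 was 8.49-fold lower (2.55 to 44.3). Zfp462, which in mouse embryonic stem cells helps to hold heterochromatin at lineage genes, had 8 reads in the terminal sac library against 26 in the canalicular and was 3.76-fold lower (1.65 to 9.62). Zfp280d, at 5 against 18 reads, was 4.17-fold lower (1.49 to 14.4), and Zfp704, at 2 against 11, was 6.37-fold lower (1.39 to 59.1). Zfp512 (7 against 17 reads) and Zfp800 (7 against 16 reads) were 2.81-fold and 2.65-fold lower, with intervals of 1.11 to 8.02 and 1.03 to 7.61. Those last hosts were no longer called on the scale of median non-junction reads, which gives 4 lower and 3 higher, the third being Zfp608. The share of all hosts called was not computed on that scale.

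Zfp292 and Zfp426 went the other way. Zfp292, a very large protein with 14 finger matches, had 4, 14, 34 and 7 reads. It was 2.10-fold higher (1.10 to 4.23) in the terminal sac library than in the canalicular, and 3.81-fold lower (1.66 to 10.2) in the alveolar library than in the terminal sac. Its reads thus peaked at embryonic day 18.5, although the rise stood at 2.0-fold, just under the threshold, with non-junction totals as the scale. Zfp426 had 2, 2, 12 and 8 reads and was 5.18-fold higher (1.15 to 47.7) in the terminal sac library.

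Between the alveolar and the terminal sac library 22 hosts could be compared. None was called higher, beside 12% of all hosts, and the 3 called lower, beside 16.3%, were Zfp638, Zfp292 and Zfp236, with the values above. The median log2 ratio was -0.15 for the family and -0.18 for all hosts. Zfp423, a regulator of preadipocyte identity in mouse, had 9, 16 and 9 reads at the embryonic stages and was not listed in the alveolar library. Its paralogue Zfp521 was listed only in the terminal sac library, with 9 reads. Zfp366 (DC-SCRIPT), known from dendritic cells, had 2, 0, 9 and 8 reads, so most of its reads fell in the later libraries.

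**Figure D3:**
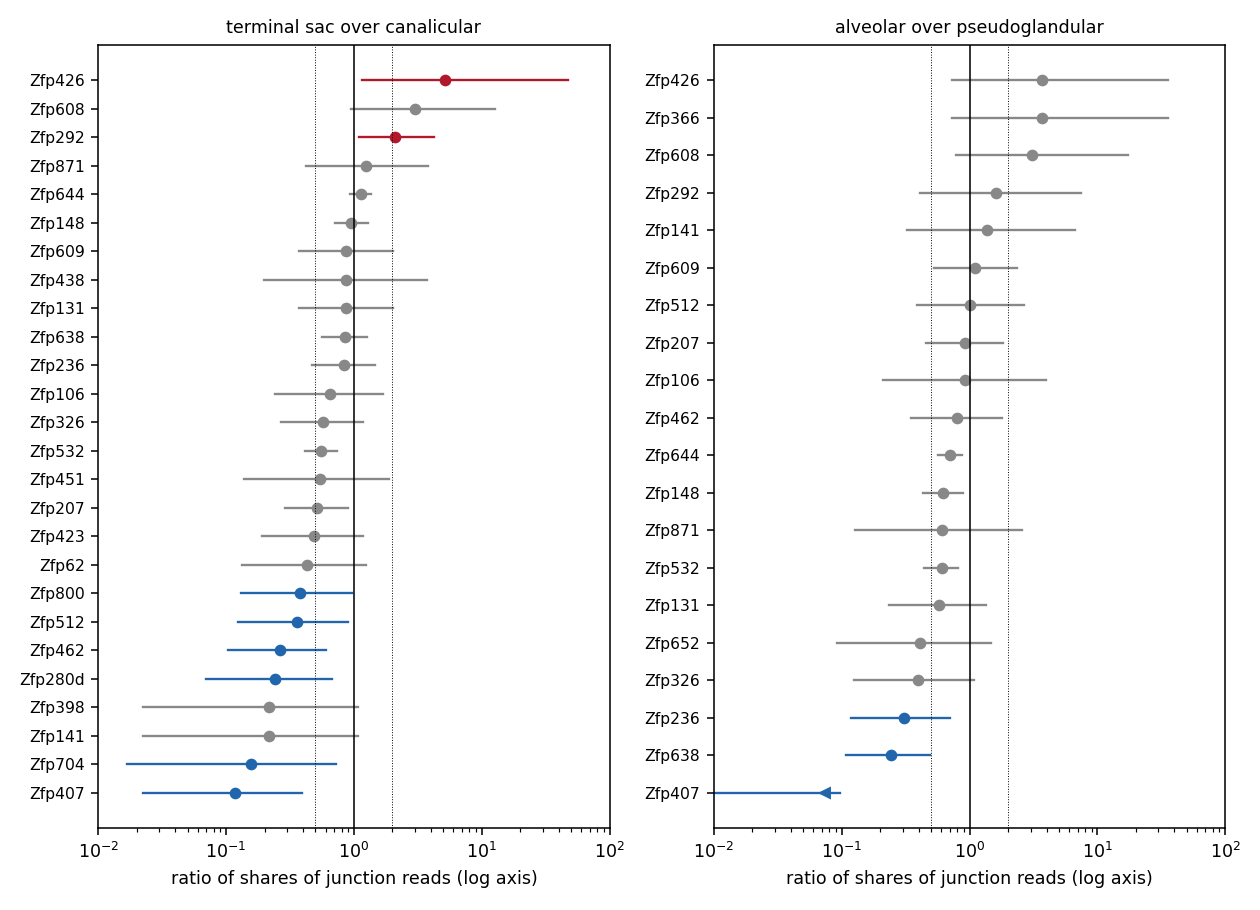
Ratio of a host's share of junction reads, later library over earlier, on a log axis, for every Zfp host with 10 or more reads in the pair; lines are 95% intervals, dotted lines mark 2-fold, red and blue are hosts called higher and lower, and the triangle is a bound for an unlisted host. In the terminal sac over canalicular panel 21 of 26 points lie left of 1, beside 599 of 1236 ratios over all hosts.

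Among hosts with other known roles, Zfp207 (BuGZ), a microtubule-binding protein that loads Bub3 onto kinetochores, had 19, 37, 22 and 19 reads. Zfp326, part of a complex that couples transcription elongation to splicing, had 14, 21, 14 and 6 reads. Zfp106, an RNA-binding protein needed for motor neuron and muscle upkeep in mouse, had 5, 12, 9 and 5 reads. All of these had their highest count in the canalicular library and were not called on the host's junction reads in any pair. Single circles of Zfp207 and Zfp326 were, with values given further on. Zfp131, a BTB-domain transcription factor, had 16, 13, 13 and 10 reads. Zfp451, a SUMO ligase, had 3, 8, 5 and 5 reads, and Zfp91, a ubiquitin ligase, had 2, 2, 6 and 0. Zfp652 had 9, 9, 0 and 4 reads.

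The most abundant single circRNA came from Zfp644 and had 80, 66, 96 and 45 reads. It runs over chr5:106618071-106638635, and its 3′ end lies inside the last exon of the gene, at a point that is no exon boundary in M21. In all, 3 Zfp644 circles with 403 reads end at such a point, and in the family 30 circles of 20 hosts, with 548 reads, begin at an exon boundary and end inside an exon. The circle of Zfp148 exons 2 to 4 followed, with 71, 65, 79 and 41 reads in 567 spliced bases that include the start codon and none of the 4 finger matches. Zfp532 exons 5 to 8 (chr18:65638750-65656632) had 63, 73, 44 and 36 reads and 6 of 10 finger matches. Zfp644 exons 3 to 5 had 36, 33, 40 and 41 reads and hold all 7 finger matches of the protein in 3539 bases.

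Next by reads were Zfp644 exons 2 to 5 (90 reads), Zfp532 exon 4 (89), a Zfp644 circle of 48775 genomic bases ending at the same point in the last exon (87), Zfp207 exons 9 to 13 (69), Zfp532 exons 7 to 8 (62) and Zfp644 exons 3 to 6 (60). The 10 leading circles thus came from 4 genes. Many circles of 1 gene share an end: 144 of the 208 do so with another, they hold 2340 reads in 29 hosts, and their non-junction reads are counted in part on the same bases. Zfp638 had the most distinct circles, 18, then Zfp644 with 15, and Zfp207, Zfp236 and Zfp280d with 10 each.

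The circles of a host did not always move together. In Zfp638 the circle of exons 3 to 21 had 3, 16, 24 and 0 reads, while that of exon 2 had 11, 2, 0 and 0. The first was 4.44-fold higher (1.27 to 23.8) in the canalicular library than in the pseudoglandular, and the second 6.61-fold lower (1.44 to 61.4), while the host as a whole had 51 reads in the canalicular library, against 38 in the pseudoglandular. As a share of Zfp638 reads the exons 3 to 21 circle made up 7.89% (1.66 to 21.4), 31.4% (19.1 to 45.9), 48.0% (33.7 to 62.6) and 0% (0 to 30.8) in order of stage. In Zfp407 the circle of exons 2 to 3 had 19, 4, 3 and 0 reads, and it was 5.71-fold lower (1.90 to 23.1) in the canalicular library than in the pseudoglandular.

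In Zfp644 a short circle inside the 3′ part of the gene, chr5:106618071-106619642, had 3, 3, 17 and 6 reads and was 4.89-fold higher (1.42 to 26.1) in the terminal sac library than in the canalicular. The host's leading circle made up 42.1%, 35.1%, 39.2% and 30.8% of its reads, with overlapping intervals. In Zfp148 the exons 2 to 4 circle made up 88.8%, 76.5%, 84.0% and 75.9%, and the longer circle of exons 2 to 7 had 3, 15, 8 and 2 reads, 4.16-fold higher (1.18 to 22.4) in the canalicular library than in the pseudoglandular. In Zfp532 the exons 5 to 8 circle made up 56.8%, 55.7%, 52.4% and 49.3%. The exon 4 circle of that gene had 22, 20, 21 and 26 reads and made up 19.8%, 15.3%, 25% and 35.6%.

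**Figure D4:**
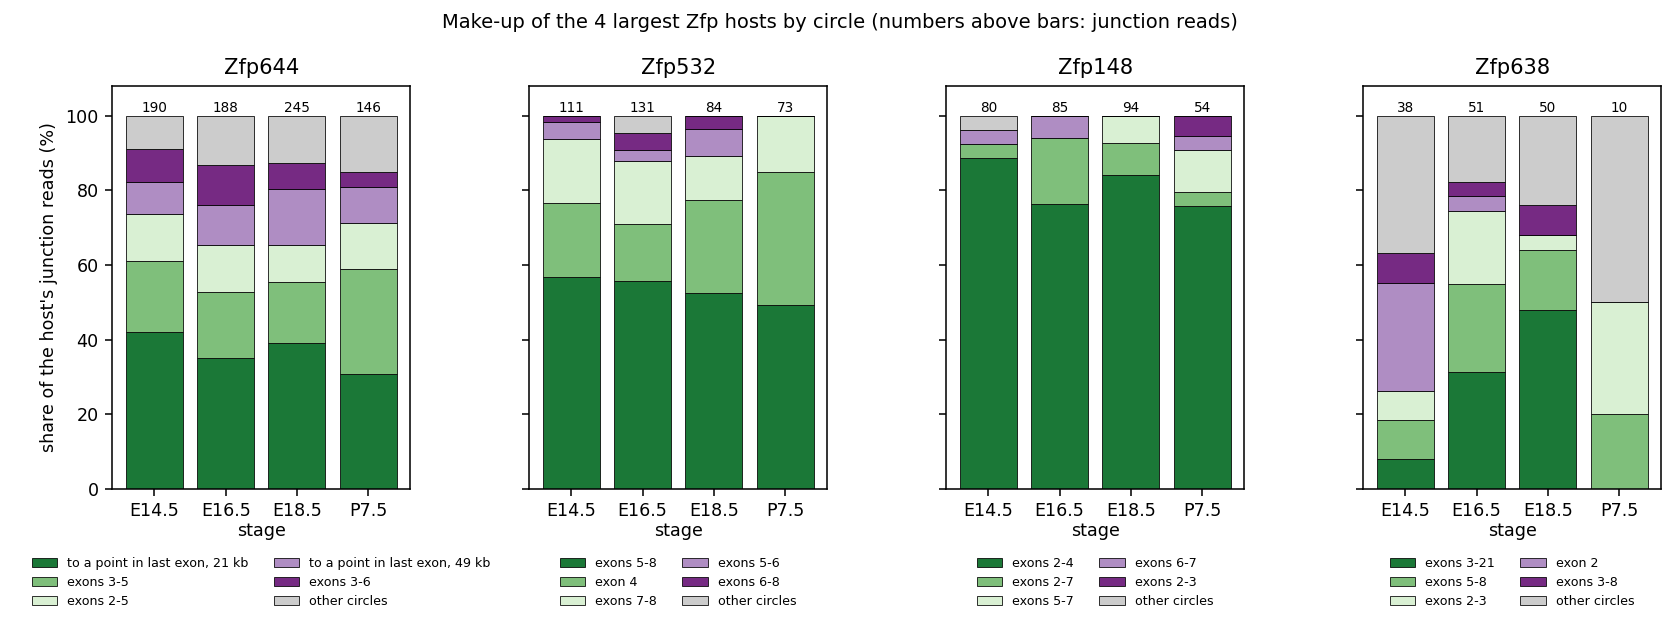
Share of each host's junction reads (%) by circle at the 4 stages for Zfp644, Zfp532, Zfp148 and Zfp638; the 5 most abundant circles are coloured, the rest are grey, and the number above a bar is the host's reads. Zfp148 keeps 75.9% to 88.8% in 1 circle, while the leading circle of Zfp638 moves between 0% and 48.0%.

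Single circRNAs were compared by the same rule. Alveolar over pseudoglandular gave 0 higher and 3 lower of 22 compared, beside 15.2% and 18.9% of all circRNAs. Canalicular over pseudoglandular gave 4 higher and 2 lower of 33, beside 12.4% and 9.83%. Terminal sac over canalicular gave 3 higher and 7 lower of 32, beside 12.1% and 12.4%. Alveolar over terminal sac gave 0 higher and 4 lower of 27, beside 10.5% and 15.7%. The Zfp292 circle of exons 2 to 4 carried that host's change, with 4, 9, 30 and 7 reads, a rise of 2.88-fold (1.33 to 6.89) in the terminal sac library relative to the canalicular and a fall of 3.36-fold (1.45 to 9.06) in the alveolar relative to the terminal sac. The leading Zfp207 circle, of exons 9 to 13, had 11, 30, 13 and 15 reads. It was 2.27-fold higher (1.11 to 5.02) in the canalicular than in the pseudoglandular library and 2.67-fold lower (1.35 to 5.58) in the terminal sac than in the canalicular. The leading Zfp326 circle, of exons 6 to 11, had 10, 21, 8 and 6 reads and was 3.04-fold lower (1.29 to 7.94) in the terminal sac than in the canalicular library.

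The zinc finger circles were set beside those of all other hosts by their exons. Both ends lay at exon boundaries of 1 M21 transcript in 67.8% of the 208, against 77.2% of the 12785 circRNAs of all other hosts. Among circles so placed, 39.7% began at exon 2, against 29.3% for other hosts, and 31.4% of those on coding transcripts held the start codon, against 15.1%. The median circle had 4 exons and 929 spliced bases, against 5 exons and 648 bases, and 9.22% were single exons, against 4.13%. In listing, 13% were in all 4 libraries, against 6.69%, and those circles held 68.8% of the family's reads, against 50.4% for other hosts. The mean was 13.2 reads a circle, against 8.96 for other hosts, and the part of read number in listing was not tested. The differences were given no test, since circles of 1 gene share ends.

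Finger matches were counted by translating M21 coding transcripts and searching for C, 2 to 4 residues, C, 12 residues, H, 3 to 5 residues, H. Of 139 placed circles of genes with a match, 57 held no finger (847 reads), 56 held some (793 reads) and 26 held every finger of the protein (448 reads). Left out of this tally are 67 circles, with 652 reads, whose ends could not both be placed at exon boundaries of 1 transcript. Among them are Zfp644 circles of 287 and 87 reads. Both span the exons 3 to 6 circle of that gene, which holds 7 of 7 finger matches. Fingers in the circles left out were not counted, so the read sums do not rank the 3 classes over the family. The Zfp292 circle held 0 of 14, Zfp609 exon 2 held 0 of 1, Zfp532 exon 4 held 0 of 10, Zfp462 exons 8 to 10 held 5 of 33, and Zfp366 exons 2 to 3 held 9 of 11. Letters of the fingers in a circle are no evidence that it is translated.

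Which zinc finger genes were hosts differed by where the fingers lie. M21 has 392 protein-coding genes that meet the name rule, and 68 of them (17.3%) were hosts, against 20.8% of all 21951 protein-coding genes. Of 295 genes with all fingers in the last exon 30 were hosts (10.2%), and of 78 with fingers in an earlier exon 37 were (47.4%). The second group held 90.8% of the family's reads and the first 9.03%, with Zfp292 its largest host at 59 reads. With hosts of 10 or more reads only, the shares were 2.03% and 32.1%. Genes of the first group had a median of 4 exons and those of the second 8, and linear expression of genes with no circle was not measured here. The part of exon number and of expression in this difference was not tested.

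**Figure D5:**
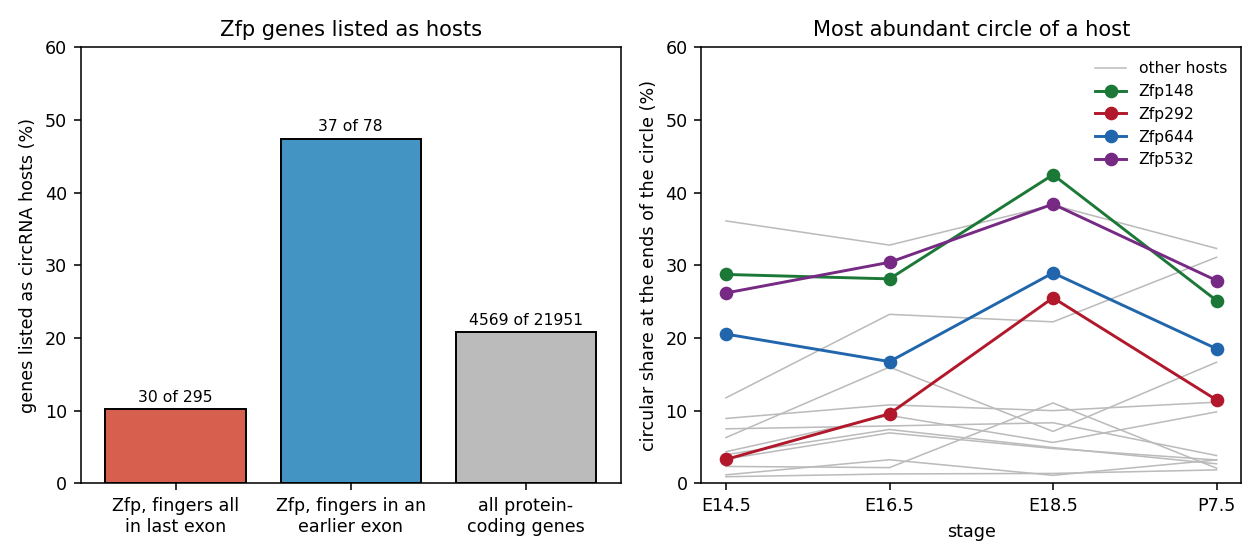
Left, share of genes listed as circRNA hosts (%) for Zfp genes with all fingers in the last exon, Zfp genes with fingers in an earlier exon, and all protein-coding genes, with gene numbers above the bars. Right, circular share (%) at the ends of the most abundant circle of a host by stage, 1 library each, for the 15 hosts whose circle was listed in all 4 libraries, with 4 of them coloured; 7 of the 15 lines are highest at embryonic day 18.5, where Zfp148 reaches 42.5%, and 8 are not.

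The 31 hosts with 10 or more reads differed widely in circular share, between 0.727% and 27.4% with a median of 4.87%. Highest were Zfp398 at 27.4% (14.6 to 42.8), Zfp438 at 22.8% (14.7 to 32.4), Zfp366 at 18.1% (11.5 to 26.2), Zfp532 at 14% (12.8 to 15.3) and Zfp609 at 13.1% (10.2 to 16.4). These shares pool libraries that list different circles, and the order of the hosts changes by stage: Zfp609 stood at 36.1%, 12.6%, 7.74% and 13% in order of stage, and Zfp532 at 12.3%, 11.2%, 18.3% and 23.4%. The first rank of Zfp398 rests on 10 reads in all, 8 of them from 1 circle in the canalicular library. Lowest were Zfp207 at 0.727% (0.590 to 0.886), Zfp638 at 0.906%, Zfp91 at 1.02%, Zfp106 at 1.31% and Zfp280d at 1.35%. Zfp638 was thus the fourth host by junction reads and the second lowest of these 31 by circular share. Its non-junction reads summed to 1796 to 13364 a library, but many of its circles share an end, so some linear reads count more than once. At its leading circle alone, of exons 3 to 21, the circular share was 2.37%, with 902 to 1581 non-junction reads where that circle was listed.

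At the ends of the leading circle, where the same bases are compared in each library, the circular share of Zfp148 was 28.7%, 28.1%, 42.5% and 25.2% in order of stage. That of Zfp644 was 20.5%, 16.8%, 29.0% and 18.5%, that of Zfp532 was 26.2%, 30.4%, 38.4% and 27.9%, and that of Zfp292 was 3.29%, 9.57%, 25.5% and 11.5%. These are the hosts of the 3 most abundant circles and Zfp292, and in them the terminal sac library was the highest. That was not general: of the 15 hosts whose leading circle was listed in all 4 libraries, 7 had their highest share in the terminal sac, 5 in the alveolar, 3 in the canalicular and 0 in the pseudoglandular library. Of 18 leading circles compared between the terminal sac and the canalicular library, 11 had odds ratios above 1 and 7 below 1. Among the latter were Zfp704, at 1.60%, against 6.36%, and Zfp141, at 7.14%, against 16%. Both had 2 terminal sac reads and intervals that included 1 (0.0722 to 1.13 and 0.111 to 2.02). Odds at least 2-fold apart with an interval off 1 were higher for Zfp292, Zfp423, Zfp426, Zfp644 and Zfp638 (2.60, 1.39 to 4.88), and lower for none. The share of all leading circles so called was not computed. The odds of junction to non-junction reads in the terminal sac library relative to the canalicular were 1.88 times as high for Zfp148 (1.30 to 2.72), 2.02 for Zfp644 (1.45 to 2.82), 3.12 for Zfp292 (1.46 to 6.66) and 1.43 for Zfp532 (0.939 to 2.18). Over all hosts compared by their sums the median odds ratio of that step was 1.32, so the median of all hosts had the same direction.

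With reads summed over the circles of a host, odds differing at least 2-fold with an interval off 1 were called. Alveolar over pseudoglandular gave 4 higher and 1 lower of 19, beside 15.2% and 8.22% of all hosts. The higher were Zfp207 at 6.51 (3.47 to 12.2), Zfp292 at 3.62 (1.10 to 11.9), Zfp106 at 3.40 (1.04 to 11.2) and Zfp532 at 2.19 (1.60 to 2.99), and Zfp609 was 3.78-fold lower (1.81 to 7.90). At the leading circle alone Zfp207 stood at 2.03, Zfp532 at 1.10 and Zfp609 at 0.842, none of them called, Zfp106 had too few reads, and only Zfp292 was called. A host sum takes in the linear reads of whichever circles a library lists: the Zfp207 sum counted 1675 non-junction reads in the alveolar library, against 10903 in the pseudoglandular.

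Canalicular over pseudoglandular gave 3 higher and 1 lower of 23, beside 8.82% and 8.05% of all hosts: Zfp207 at 3.45, Zfp326 at 2.60 and Zfp512 at 2.22 (1.02 to 4.84), and Zfp609 lower 3.87-fold. Of these only Zfp512 was called at its leading circle. Zfp407 was not called as a sum but was lower 4.10-fold (1.44 to 11.7) at its leading circle. Terminal sac over canalicular gave 4 higher and 1 lower of 26, beside 18.9% and 5.17%. Zfp426 at 4.69 (1.19 to 18.5), Zfp423 at 3.87 (1.62 to 9.25) and Zfp292 at 2.10 (1.12 to 3.94) were also higher at the leading circle, whereas Zfp462 at 2.28 and Zfp207, lower 2.15-fold, changed sign there, at 0.949 and 1.08. Alveolar over terminal sac gave 1 higher and 2 lower of 22, beside 7.01% and 14.3%. Zfp148 was lower 3.27-fold (2.31 to 4.64) as a sum and 2.18-fold (1.44 to 3.32) at its leading circle, Zfp426 was lower 3.83-fold (1.58 to 9.29), and Zfp207, higher at 4.06, was not called at its leading circle (1.36). Zfp292 was not called as a sum but was lower 2.51-fold (1.09 to 5.79) at its leading circle.

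Genes that work with KRAB zinc finger proteins or in the same silencing complexes were followed as a list of 40, 26 of them listed as hosts. Which of the Zfp hosts carry a KRAB domain was not determined. As a group the genes of the list held 1.49% (1.35 to 1.65), 1.58% (1.45 to 1.73), 1.04% (0.935 to 1.15) and 0.847% (0.744 to 0.961) of junction reads. The alveolar library was lowest, as for the Zfp hosts, and the pseudoglandular and canalicular intervals overlapped in both sets. The list summed to 388, 494, 375 and 240 reads in order of stage, and Morc3 was its largest host over the series. Morc3, a nuclear ATPase that acts in silencing, had 97, 188, 87 and 24 reads. It was 4.41-fold lower (2.80 to 7.21) in the alveolar library than in the pseudoglandular, and 2.50-fold lower (1.93 to 3.27) in the terminal sac than in the canalicular. Ehmt1, a histone methyltransferase, had 69, 103, 85 and 59 reads.

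Fam208a (Tasor), a HUSH subunit, had 45, 41, 40 and 18 reads and was 2.73-fold lower (1.55 to 5.0) in the alveolar library than in the pseudoglandular. Chd4, the remodeller of the NuRD complex, had 33, 31, 2 and 12 reads and was 3.0-fold lower (1.51 to 6.38) in that pair. It was 18-fold lower (4.57 to 155) in the terminal sac than in the canalicular library, and 7.66-fold higher (1.70 to 70.4) in the alveolar than in the terminal sac library. Trim24 had 22, 24, 21 and 15 reads and Atf7ip, a partner of Setdb1, had 10, 23, 18 and 20. Of the list, 1 gene was higher and 3 were lower of 13 compared for alveolar over pseudoglandular, beside 15.1% and 17.3% of all hosts. Canalicular over pseudoglandular gave 0 and 2 of 14, beside 11.5% and 11.3%, and terminal sac over canalicular 1 and 3 of 17, beside 14.5% and 12.5%. Alveolar over terminal sac gave 2 and 2 of 14, beside 12% and 16.3%. The gene higher in the alveolar over pseudoglandular pair was Gatad2b, with 12 reads in the alveolar library and none listed in the pseudoglandular, at least 3.67-fold. Mbd2, which reads methylated DNA, had 10, 2, 12 and 16 reads, and Trim33 had 14, 3, 7 and 18. In the canalicular library relative to the pseudoglandular they were 6.01-fold (1.28 to 56.4) and 5.61-fold (1.56 to 30.4) lower. Mbd2 was then 5.18-fold higher (1.15 to 47.7) in the terminal sac library than in the canalicular, and Trim33 3.28-fold higher (1.31 to 9.30) in the alveolar than in the terminal sac library. Gatad2a, a NuRD subunit like Gatad2b, had 9, 12, 0 and 0 reads and was at least 4.63-fold lower in the terminal sac than in the canalicular library. Smarcad1, with 8, 3, 11 and 0 reads, was at least 2.87-fold lower in the alveolar than in the terminal sac library.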

How the data were processed

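The deposited files list circRNAs per library, and their column names are those of the caller CIRI. Build mm10 and the tools BWA, HISAT2 2.0.5, HTSeq, StringTie and cutadapt are named, without roles, in the submitters' processing notes. Counts of junction and of non-junction reads are as deposited by the authors, per the file headers, with blanks taken as 0. The authors' junction ratio, a deposited fraction, was recomputed for every circRNA, with 0 differences beyond 1 unit of its last decimal. No listed Zfp circRNA had under 2 reads in a library, and no source used here states further filters.

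Deposited Ensembl identifiers were named from GENCODE M21 (4647 of 4653 matched). The 2 Zfp644 circRNAs with a second identifier (4 reads) were kept under Zfp644. Exons, junction letters and fingers came from M21. Shares of junction reads were compared by exact conditional binomial intervals, family and list shares carry Clopper-Pearson intervals, and circular shares were compared by odds ratios, with 0.5 added to all 4 counts and Woolf's interval. Percentages of all hosts or circRNAs beside a count are those called by the same rule. Scripts ran in Python 3.11.15 with numpy 2.4.6, pandas 2.3.3, scipy 1.17.1 and matplotlib 3.10.9. The comparisons were tested on simulated counts with planted changes and counting error only. The simulation held no variation between libraries or animals, no PCR copies and no listing filter, so it cannot show how the calls fare under those.

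The members, lists and tests were chosen with earlier results of these data known. Genes are named by rank of reads, of circRNAs and of circular share and by being called, and Zfp106, Zfp131, Zfp451, Zfp521, Zfp608 and Zfp652 also for a known role or a paralogue. The finger search, and the scale by median non-junction reads, were added after the data were seen. Alternatives changed the scale, the read minimum, the fold, the circRNA types, the members and the circle compared.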

Additional observations from a re-analysis of the deposited data

How the results depend on the processing

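No paired analysis was possible because each stage has 1 library and no replicate. Of 206 recomputed values of single hosts, 193 kept their direction and call, 11 lost the call and 2 changed sign. Only hosts already called were recomputed, and those under the read minimum of a setting were left out. Other read minimums, the 1.5-fold threshold and the added members could not change such a call, so the 193 overstate how stable the calls are. Of 152 counts and shares 115 stayed within their limits. The scale moved the median of all hosts by 0.29 (alveolar over pseudoglandular) and 0.45 (terminal sac over canalicular) on the log2 scale with median non-junction reads, and by 0.17 and 0.18 (canalicular over pseudoglandular) with non-junction totals. On the first of these scales the family's terminal sac over canalicular ratio turned to 1.06. With non-junction totals, canalicular over pseudoglandular was 1.18, hosts lower there were 0, and hosts higher in the terminal sac over canalicular pair were 1. With a minimum of 20 reads that last count was 1, and with 5 reads it was 4, with 1 higher for alveolar over pseudoglandular, 2 lower for canalicular over pseudoglandular, and 3 higher and 5 lower for alveolar over terminal sac. A 1.5-fold threshold gave 5 lower for alveolar over pseudoglandular. The share of all hosts called was not computed under any of the alternatives, so these counts have no background beside them.

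The family share in order of stage was 1.83%, 2.08%, 1.39% and 1.23% without Zfp644, and 3.58%, 3.61%, 3.06% and 2.51% with Zfp827 and Zfp516. It was 2.99%, 3.09% and 2.36% at the embryonic stages for circRNAs of 5 or more reads, 2.77% in the pseudoglandular library for exon-type circRNAs, and 2.02% in the alveolar library without few-pattern circRNAs. Without Zfp644 the canalicular over pseudoglandular ratio was 1.13 and alveolar over terminal sac was 0.881. That last pair gave 0.924 without few-pattern circRNAs and 0.918 by the median of ratios. For circular shares, the leading circle gave 1 higher and 0 lower (alveolar over pseudoglandular), 1 higher (canalicular over pseudoglandular), 0 lower (terminal sac over canalicular, where Zfp207 turned to 1.08 and Zfp462 to 0.949) and 0 higher (alveolar over terminal sac). Some hosts were called at the leading circle only, among them Zfp407, lower for canalicular over pseudoglandular, and Zfp292, lower for alveolar over terminal sac. A minimum of 20 reads gave 2 higher for alveolar over pseudoglandular. Genes listed as hosts were 2.03% (fingers in the last exon) and 32.1% (earlier exon) with 10 or more reads, and 5.08% (fingers in the last exon) with both ends at exon boundaries. The causes were not tested. Counts under about 10 reads and the single library per stage limit every comparison of a host.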

Other observations

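Hosts named as zinc finger genes by other symbols numbered 64. They held 1.26% (1.13 to 1.41), 1.12% (1.01 to 1.24), 1.09% (0.983 to 1.2) and 1.07% (0.953 to 1.2) of junction reads in order of stage. Of those compared, 1 was called higher and 4 lower of 19 for alveolar over pseudoglandular, beside 15.1% and 17.3% of all hosts. Canalicular over pseudoglandular gave 2 and 3 of 17, beside 11.5% and 11.3%, and terminal sac over canalicular 5 and 2 of 20, beside 14.5% and 12.5%. Alveolar over terminal sac gave 4 and 5 of 20, beside 12% and 16.3%. The difference between these hosts and the Zfp hosts was not tested.

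Among Zfp hosts outside the 4 largest, the 3′ end inside an exon recurred in Zfp131 (3 circles, 28 reads), Zfp871 (2 circles, 27 reads), Zfp62 (4 circles, 22 reads) and Zfp438 (1 circle, 19 reads). Zfp871 and Zfp62 carry all their finger matches, 15 and 25, in the last exon.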
